A study of Bos taurus with 8 samples.

Results

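The genes described here are those of the cytosolic ribosomal proteins, measured in bovine peripheral blood mononuclear cells (PBMCs) under lipopolysaccharide (LPS), the outer membrane component of Gram-negative bacteria. They were taken by name from the 4 single-cell RNA sequencing (scRNA-seq) tables: every gene called RPS or RPL followed by a number and at most a short ending, together with RPSA, RPLP0, RPLP1 and RPLP2. This gave 82 of the 21861 genes in the tables, of which 33 encode small subunit proteins, 40 large subunit proteins, 3 proteins of the stalk, and 6 have names that end in L or L1 and mark paralogs of other ribosomal protein genes. The rule goes by name and uses no measured value, but it was set with earlier results of these data known. RPL22, RPL31, RPL41 and RPL39L would fit the rule, but no gene of these names was found, so the list is not the full set of ribosomal proteins. RPS29 stands in the tables under 2 gene IDs, ENSBTAG00000052337 and ENSBTAG00000025666, and the name is used here for the former, since the latter held 14 unique molecular identifiers (UMIs) in all.

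A ribosome is built from ribosomal RNA and 1 copy of most of these proteins, with the acidic stalk proteins as an exception. The mRNAs of nearly all of them begin with a pyrimidine tract, the 5′ terminal oligopyrimidine (5′TOP) motif, through which mTOR and LARP1 set how strongly they are translated. Ribosomal protein mRNAs make up a large part of the mRNA of resting lymphocytes, and blood monocytes carry less of them relative to their other transcripts.

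Whole blood of 4 Holstein cows, lactating and 2 years old, was pooled and then divided into 4, so that no library can be assigned to an animal and animals cannot be compared. The 4 portions of this pool were left without LPS or received LPS at 2 µg/ml for 2, 4 or 8 h, after which PBMCs were isolated. No incubation time is given for the portion without LPS, so LPS and the hours of incubation cannot be told apart. Each treatment gave 1 scRNA-seq and 1 scATAC-seq library, and no test was possible. Where 4 values are given for a gene or class, they stand in the order no LPS, 2 h, 4 h and 8 h of LPS. Every interval given is a 95% interval for counting error alone, and a difference between treatments and a difference between libraries cannot be told apart.

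Of 30756 barcodes, 28484 were kept, 3411 to 9865 per library, with 16657841 to 47875879 UMIs per library and a median of 3997 to 4757 UMIs per cell. Pairs of libraries shared 8 to 24 barcodes. No doublet caller was run, and doublets were limited only by the maximum of 3000 genes per cell and by setting apart cells with several gate genes. Cells were put in a class when they held at least 1 UMI of 1 gate gene and none of the other 3: CD14, the LPS co-receptor of monocytes, CD3E of the T cell receptor complex, MS4A1 (CD20) of B cells, or NCR1 (NKp46) of NK cells. The classes were checked with lists of 9 further markers per cell type, whose summed level was 10986 to 17876 counts per 1000000 UMIs (CPM) for the monocyte list in CD14 cells, 773 to 876 for the T cell list in CD3E cells, 1296 to 1732 for the B cell list in MS4A1 cells and 940.3 to 1249 for the NK cell list in NCR1 cells. CD3E cells also had 142 to 245 CPM of the monocyte list and 112 to 150 CPM of the B cell list. MS4A1 cells also had 192 to 493 CPM of the monocyte list and 59.0 to 82.6 CPM of the T cell list. GZMB was listed under more than 1 gene ID, and fewer than 9 genes of the NK cell list were measured. The NCR1 class had 38 to 97 cells per library, held GZMB at 0 in 1 or both of its gene IDs, and also had 368 to 461 CPM of the T cell list and 1431 to 1547 CPM of the monocyte list. In each library 5 of the 9 monocyte markers had a UMI in NCR1 cells, among them always CTSS, S100A12, FCER1G and TYROBP. LYZ and CD163 were at 0 in every library, VCAN and CSF1R in 3 of 4, and CD68 without LPS and at 2 h.

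Ribosomal protein mRNAs made up a large part of these libraries. Over all kept cells they took 48957846 UMIs, or 34.2% of the total, and 67 of the 82 genes reached 1000 CPM without LPS. A UMI was found for 81 of the 82 genes. The gene with most UMIs was RPS12, a small subunit protein, at 11870.3, 13064, 13669 and 13598 CPM. RPLP1 of the stalk was at 11108, 12185, 12785 and 12648 CPM and RPLP0, the base of the stalk, at 7419, 8149, 8471 and 7987 CPM. These 3 genes were lowest without LPS. RPL10, which joins the large subunit late in its assembly, was at 9085, 9721, 9677 and 8907 CPM, and RPS2, on the mRNA entry side of the small subunit, at 8648, 9086, 9116 and 8493 CPM. RPL10 and RPS2, the other two of the 5 genes with most UMIs, were lowest at 8 h. UMIs of a 3′ library are not divided by gene length, and reads of processed pseudogenes or near-identical copies can be lost or added, so that levels are compared between libraries and classes for 1 gene and not between genes.

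The share of all UMIs that came from ribosomal protein genes was 31.2%, 34.1%, 36.3% and 36.5% without LPS and at 2, 4 and 8 h. The interval was 31.16 to 31.19% without LPS and 36.45 to 36.49% at 8 h, so counting error was far smaller than the differences. The share was thus lowest without LPS and close to equal at 4 and 8 h. When the classes of each library were given the part of the UMIs they had without LPS, the share became 31.2%, 30.6%, 31.3% and 32.4% in the same order, and the differences between the first 3 libraries were largely gone. The part of the UMIs that came from CD14 cells was 18.0%, 7.98%, 3.14% and 5.14%.

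**Figure D1:**
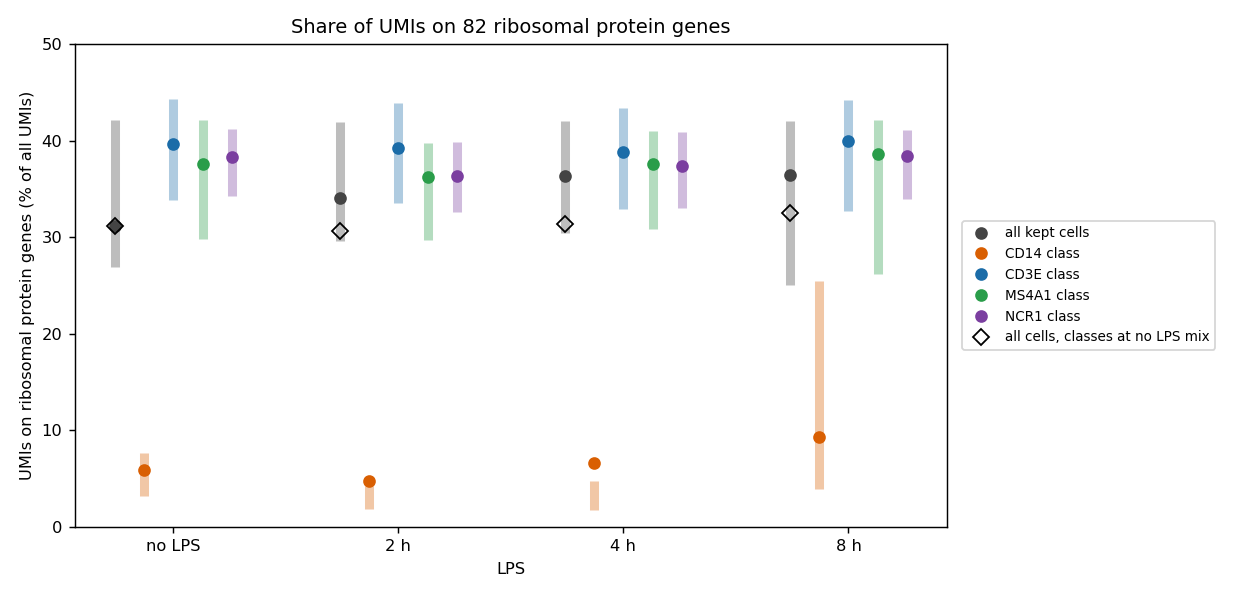
Share of UMIs from the 82 ribosomal protein genes (y axis, percent of all UMIs) in the 4 libraries (x axis), for all kept cells and for each gated class. Points are shares of summed UMIs, the pale bars run from the lower to the upper quartile of the shares of single cells, and diamonds give all cells with the classes at their mix without LPS. The CD14 points lie at 4.74% to 9.33% and the points of the CD3E, MS4A1 and NCR1 classes at 36.2% to 39.98%.

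CD14 cells stood apart from the lymphocyte classes in every library. Their share of ribosomal protein UMIs was 5.89%, 4.74%, 6.597% and 9.33%. With at least 2 CD14 UMIs asked of each cell it was 5.25%, 3.97%, 4.65% and 5.17%, and the share at 8 h was then not the highest of the 4. In CD3E cells it was 39.7%, 39.3%, 38.8% and 39.98%, in MS4A1 cells 37.6%, 36.2%, 37.5% and 38.6% and in NCR1 cells 38.3%, 36.3%, 37.3% and 38.4%. The mean over the 4 libraries was 6.64% in CD14 cells against 39.4%, 37.5% and 37.6% in the CD3E, MS4A1 and NCR1 classes, and the range of the CD14 class did not overlap that of any of the others. Among the lymphocyte classes the order was less clear: CD3E cells were highest in each library, by 1.27 to 3.04 percentage points over MS4A1 cells, and MS4A1 and NCR1 cells changed places between libraries.

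Cells without any gate gene had a share of 33.5%, 32.8%, 33.7% and 29.8%, and cells with several gate genes, in which doublets would be found, had 28.2%, 29.2%, 31.3% and 33.5%. Both lay between the CD14 class and the lymphocyte classes. The small and large subunits kept their proportion: the small subunit genes took 46.1% to 49.1% of the ribosomal protein UMIs in every class and library.

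In the CD14 class the cells also changed in number and depth. The class held 796, 382, 151 and 170 cells, with a median of 8293, 10468.5, 5906 and 1550.5 UMIs per cell. The median share over single CD14 cells was 4.66%, 2.86%, 2.62% and 23.6%, a high value at 8 h that belonged to cells of low depth. At 8 h, 61.8% of the CD14 cells had under 2000 UMIs, against 23.8% to 29.8% in the other libraries. In these shallow cells the ribosomal share was 9.43%, 3.75%, 3.43% and 21.8% in the order of the libraries, and in the cells from 2000 UMIs it was 5.77%, 4.77%, 6.74% and 7.23%. The median over single cells from 2000 UMIs was 4.46%, 3.18%, 3.37% and 3.83%, and over single cells with at least 2 CD14 UMIs, which were 66 of the 170 CD14 cells at 8 h, it was 4.50%, 2.83%, 2.62% and 4.02%. By these medians the 8 h library was not above the library without LPS. The 8 h cells with several gate genes also had a lower median than in the other libraries, at 34.6%, 35.1%, 34.6% and 25.7%. The same held for cells without a gate gene, at 33.5%, 32.1%, 32.2% and 25.1%. Of MS4A1 cells, 3.37%, 3.34%, 2.69% and 10.6% had a share from 24% to under 26%. Of CD3E cells, 1.90%, 1.72%, 1.79% and 4.77% did. The split by depth was chosen after the data were seen. The summed level of the T cell list in CD14 cells was 25.5, 18.3, 40.4 and 77.0 CPM, that of the B cell list 21.9, 20.2, 51.5 and 131 CPM and that of the monocyte list 17876, 10986, 11591 and 16824 CPM. In each library 8 or 9 of the 9 markers of either lymphocyte list had a UMI in this class. Their part in the 8 h share of this class was not tested.

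The share also followed the depth of a cell. With the cells of each library ranked by UMIs and cut into 10 equal parts, the shallowest part had a share of 14.9% to 21.0% and the 8th had 39.7% to 40.8%. The deepest part was lower again, at 17.4%, 26.5%, 34.0% and 35.6% in the order of the libraries. CD14 cells were 47.1%, 21.3%, 8.66% and 10.9% of the cells in this deepest part in the same order. In the shallowest part they were 17.497%, 8.21%, 6.901% and 9.94%. At 8 h the shallowest and deepest parts thus had similar percentages of CD14 cells, whereas their ribosomal shares were 21.0% and 35.6%. The part of CD14 cells in the course of the share with depth was not tested.

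The comparison of each LPS library with the library without LPS was then made gene by gene, as the log2 ratio of CPM after adding 1 CPM. Of the 82 genes, 79 had at least 20 UMIs over both libraries. RPL10L had no UMI, RPL3L had 22 in the 4 libraries together, and ENSBTAG00000025666 had 14. The median log2 ratio of the 79 genes was 0.14, 0.23 and 0.20 at 2, 4 and 8 h, against -0.03, 0.02 and 0.10 over all genes with as many UMIs. A ratio above 0 was found for 78, 79 and 75 of the 79 genes, and with the classes at their mix without LPS for 19, 48 and 49. In that mix the medians were -0.02, 0.02 and 0.04, so that the direction at 2 h turned, whereas with TMM scaling they were 0.16, 0.21 and 0.08.

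Few of these differences were large. At 2 h, 3 of 79 genes were at least 1.2-fold higher, against 12.8% of all genes, and none was 1.2-fold lower, against 21.1%. At 4 h the counts were 29 higher, against 20.0% of all genes, and none lower, against 22.0%. At 8 h they were 31 higher, against 27.9% of all genes, and none lower, against 15.3%. With genes of at least 5000 UMIs as the base, 30 of 77 genes were higher at 8 h, against 20.0% of such genes. At least 1.5-fold higher at 8 h were 11 of 79, against 4.86% of all genes.

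The groups of the ribosome had similar medians at 2 and 4 h. The small subunit genes had medians of 0.14, 0.21 and 0.17 at 2, 4 and 8 h, with 1, 11 and 10 of 32 genes at least 1.2-fold higher, where 12.8%, 20.0% and 27.9% of all genes were. The large subunit genes had medians of 0.14, 0.24 and 0.23, with 1, 14 and 17 of 40 higher, beside the same shares of all genes. The 3 stalk genes, whose proteins recruit the elongation factors, had medians of 0.13, 0.20 and 0.19. At 8 h the stalk was split, with a log2 ratio of 0.11 for RPLP0, 0.19 for RPLP1 and 0.42 for RPLP2. The 4 measured paralogs had medians of 0.24, 0.34 and 0.31.

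**Figure D2:**
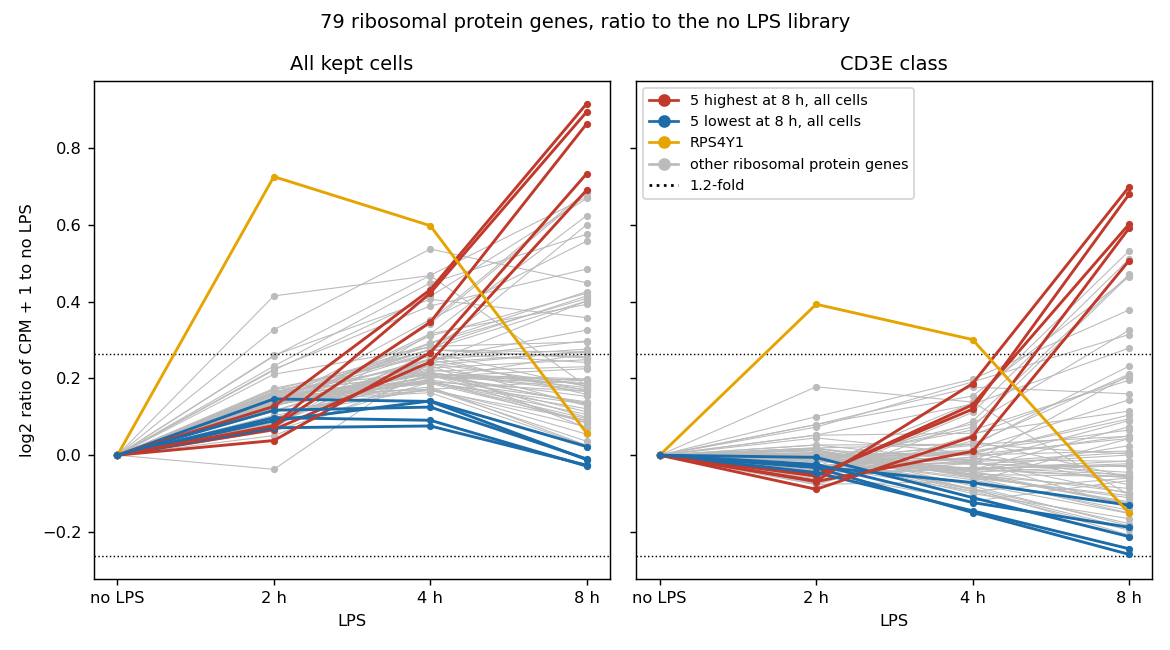
Log2 ratio of CPM + 1 to the library without LPS (y axis) by LPS time (x axis) for the 79 measured ribosomal protein genes, over all kept cells on the left and in the CD3E class on the right. Each line is 1 gene, with the 5 highest and 5 lowest of all cells at 8 h and RPS4Y1 in colour, and dotted lines mark 1.2-fold. Over all cells the genes spread at 8 h from -0.03 for RPL10 to 0.92 for RPL36A.

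At 2 h, the 5 highest ratios included those of RPS4Y1, at 0.73 (interval 0.67 to 0.79), RPL7L1 at 0.41, RPL4 at 0.33 and RPL22L1 at 0.26. The 5 lowest were RPL26L1 at -0.04, RPS28 at 0.04, RPS20 at 0.05, RPSA at 0.06 and RPL37 at 0.07. The low end at 2 h was therefore close to 0, and 3 of the 5 genes at the high end were paralogs or the RPS4 copy. At 4 h, the 5 highest included RPS4Y1 at 0.60, RPL4, which lines the exit tunnel of the large subunit, at 0.54, RPL7L1 at 0.47 and RPS16 at 0.45. The 5 lowest included RPS2 at 0.08, RPL10 at 0.09, RPS7 at 0.13 and RPL18 at 0.14.

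At 8 h the genes were spread more widely than at 2 h. RPL36A, a large subunit protein near the exit site for tRNA, was measured at 606, 662, 817 and 1144 CPM, a log2 ratio of 0.92 (interval 0.89 to 0.94) at 8 h. RPS29, a small zinc-binding protein of the small subunit, was at 2539.7, 2679, 3404 and 4722 CPM, a log2 ratio of 0.89. RPL38, a large subunit protein known from mouse development for its effect on the translation of Hox mRNAs, was at 1189, 1252, 1512 and 2164 CPM, a log2 ratio of 0.86. Each of these was highest at 8 h and second highest at 4 h. RPS28, at the mRNA exit side of the small subunit, was at 4275, 4389, 5145 and 7108 CPM, a log2 ratio of 0.73, and RPL37, a zinc-binding large subunit protein, at 3992, 4181, 4724 and 6444 CPM, a log2 ratio of 0.69. These were the 5 highest ratios, and below them were RPL37A at 0.69, RPS21 at 0.68, RPL23A at 0.67, RPS27 at 0.62 and RPL39 at 0.60, all among the 11 genes past 1.5-fold.

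Among the 5 lowest at 8 h were RPL10 at -0.03 (interval -0.04 to -0.02), RPS2 at -0.03, RPL18 at -0.01 and RPS7 at -0.01. Their CPM at 8 h was within 1.2-fold of that without LPS. RPL10 and RPS2, whose levels are given above, had their highest CPM at 2 and 4 h.

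The 8 h pattern was also present inside the CD3E class, whose gate leaves out every cell with a CD14 UMI. In CD3E cells the median log2 ratio of the 79 genes was -0.01, -0.02 and -0.03 at 2, 4 and 8 h, against -0.02, -0.01 and 0.03 over all genes. At 2 h 1 of 79 genes was at least 1.2-fold higher, RPS4Y1, against 10.4% of all genes, and at 4 h again RPS4Y1, against 14.1%. RPS4Y1 was no longer past 1.2-fold at either time with every cell thinned to 1000 UMIs and gated again, nor at 4 h in cells of 3000 to 6000 UMIs. At 8 h 14 of 79 were higher, a share below the 20.3% of all genes, and none was lower, against 11.3%. With genes of at least 5000 UMIs as the base, these were 14 of 75, against 10.3%. The 14 genes included RPL21, RPL23A, RPL36, RPL36A, RPL37, RPL37A, RPL38, RPL39, RPS16, RPS21, RPS27, RPS28 and RPS29.

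Their levels in CD3E cells differed little between the first 2 libraries and were highest at 8 h. RPS29 was at 3373, 3219, 3839 and 5476 CPM, a log2 ratio of 0.70 (interval 0.68 to 0.72) at 8 h. RPL38 was at 1507.5, 1455, 1638 and 2415 CPM, a log2 ratio of 0.68, and RPL36A at 741, 714, 812 and 1125 CPM, a log2 ratio of 0.60. All 3 genes were slightly below the level without LPS at 2 h. RPS28 was at 5500.3, 5172, 5689 and 8285 CPM, a log2 ratio of 0.59, and RPS21, RPL37A and RPL37 had log2 ratios of 0.53, 0.51 and 0.51.

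RPL10 was lowest at 8 h in these cells, at 11342, 11087, 10227 and 9482 CPM, a log2 ratio of -0.26 (interval -0.27 to -0.25) at 8 h. RPS2 was at 10734, 10403, 9708 and 9066 CPM, a log2 ratio of -0.24. RPL18, RPL29, RPS9 and RPLP0 had log2 ratios of -0.21, -0.21, -0.20 and -0.19, none of which reached 1.2-fold. The whole share of ribosomal protein UMIs in the class ran only from 38.8% to 39.98%, so the difference lay in which genes supplied it.

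Depth and quality of the CD3E cells were recorded beside this result. The median UMIs per CD3E cell were 4070, 4092, 4763 and 5244.5 and the median mitochondrial share 2.29%, 2.30%, 2.31% and 2.47%. With only CD3E cells of 3000 to 6000 UMIs in both libraries, 12 genes were at least 1.2-fold higher at 8 h, all of them among the 14, with log2 ratios of 0.68 for RPS29, 0.68 for RPL38, 0.53 for RPL36A and -0.37 for RPL10. With every cell thinned to 1000 UMIs and gated again there were 14, of which 13 were among the 14, and RPS29 had 0.61. The CD3E class then held 2075 cells without LPS and 967 at 8 h, in place of 3482 and 1550. These restrictions were chosen after the data were seen. Over the whole class the 8 h log2 ratios of RPS29, RPL38, RPL36A and RPL10 were 0.70, 0.68, 0.60 and -0.26. Cells within the window of 3000 to 6000 UMIs were not matched further in depth. Whether depth had a part in the pattern was not tested.

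Several of the 14 genes, such as RPS29, RPL38, RPL39 and RPS28, encode some of the shortest ribosomal proteins, and mRNAs of other short proteins were read as well. A list of 28 short subunits of the respiratory chain and ATP synthase, added after these values were seen, had median log2 ratios in CD3E cells of -0.05, 0.04 and 0.08 at 2, 4 and 8 h, with 0, 2 and 8 genes at least 1.2-fold higher, where 10.4%, 14.1% and 20.3% of all genes were. ATP5MPL, a small subunit of ATP synthase, was at 164, 154, 185 and 266 CPM in CD3E cells, a log2 ratio of 0.69 at 8 h, and NDUFB1 of complex I at 89.4, 83.7, 93.3 and 133 CPM, a log2 ratio of 0.57. COX7A2 of complex IV had a log2 ratio of -0.01. Whether the length of an mRNA had a part in the pattern was not tested.

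In MS4A1 cells the medians of the 79 genes were -0.04, 0.02 and 0.04 at 2, 4 and 8 h, against -0.12, -0.09 and 0.01 over all genes. At 2 h, 4 genes were at least 1.2-fold higher, among them RPL4, RPL7L1 and RPS4Y1, against 18.2% of all genes. At 4 h there were 7, these and RPL22L1, RPL36A and RPS16, against 20.3%. At 8 h there were 19 of 79, a share close to the background of 23.5%, among them RPL4, RPL7, RPL21, RPL23A, RPL26L1, RPL36, RPL36A, RPL37, RPL37A, RPL38, RPL39, RPLP2, RPS16, RPS21, RPS27, RPS27L, RPS28 and RPS29. RPL36A was at 756, 773, 945 and 1477 CPM, a log2 ratio of 0.97 (interval 0.91 to 1.02) at 8 h, RPL38 had 0.80 and RPS29 0.74. At least 1.2-fold lower at 8 h were 2 genes, among them RPL18 with -0.31, where 21.7% of all genes were. These counts in MS4A1 cells were not repeated with cells restricted by depth.

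The NCR1 class rests on 58 cells without LPS and 38 at 8 h, so its values are less firm. The medians were -0.08, -0.03 and -0.03 at 2, 4 and 8 h. At 8 h, 14 of 79 genes were at least 1.2-fold higher, against 29.4% of all genes, among them RPL7L1, RPL17, RPL23A, RPL34, RPL36A, RPL37, RPL37A, RPL38, RPL39, RPS21, RPS27, RPS28 and RPS29. RPS29 had a log2 ratio of 0.79 (interval 0.66 to 0.92) and RPL38 of 0.64 (interval 0.44 to 0.84), whereas RPL7L1 had 0.42 (interval -0.54 to 1.41) from 22 UMIs at 8 h and 18 without LPS, an interval that included 0. A further 4 genes, RPL29, RPS7, RPS27L and RPS4Y1, were lower, against 28.7%, of which RPS4Y1 rested on 16 UMIs at 8 h and 29 without LPS, with -0.71 (interval -1.70 to 0.20). All class comparisons at a given time used the same pair of libraries, and those across times share the library without LPS.

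In CD14 cells most of the genes were lower at 2 h, and what was found at 4 and 8 h depended on the gate. Their median log2 ratio was -0.32, 0.15 and 0.64 at 2, 4 and 8 h, against -0.51, -0.13 and 0.16 over all genes. At 2 h, 61 of 79 were at least 1.2-fold lower, a share close to the 67.3% of all genes. At 4 h, 22 of 79 were higher, close to 26.3%. At 8 h, 77 of 79 were higher, against 43.3% of all genes, in the library whose CD14 cells were mostly under 2000 UMIs. With at least 2 CD14 UMIs per cell, 11 of 79 were higher at 8 h, against 29.3%, and 17 lower, against 35.0%, with a median of -0.04, and at 4 h 2 were higher, against 23.1%, and 22 lower, against 46.2%. In the cells from 2000 UMIs, 44 were higher at 8 h, against 33.0%. At 2 h these restrictions, which were chosen after the data were seen, gave 73 and 52 genes lower, against 69.4% and 66.6%. RPL37 in CD14 cells was at 487, 343, 616 and 1009 CPM and RPS14, of the platform of the small subunit, at 768, 628, 1016 and 1352 CPM. With the gate of 1 UMI both were lowest at 2 h and highest at 8 h.

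**Figure D3:**
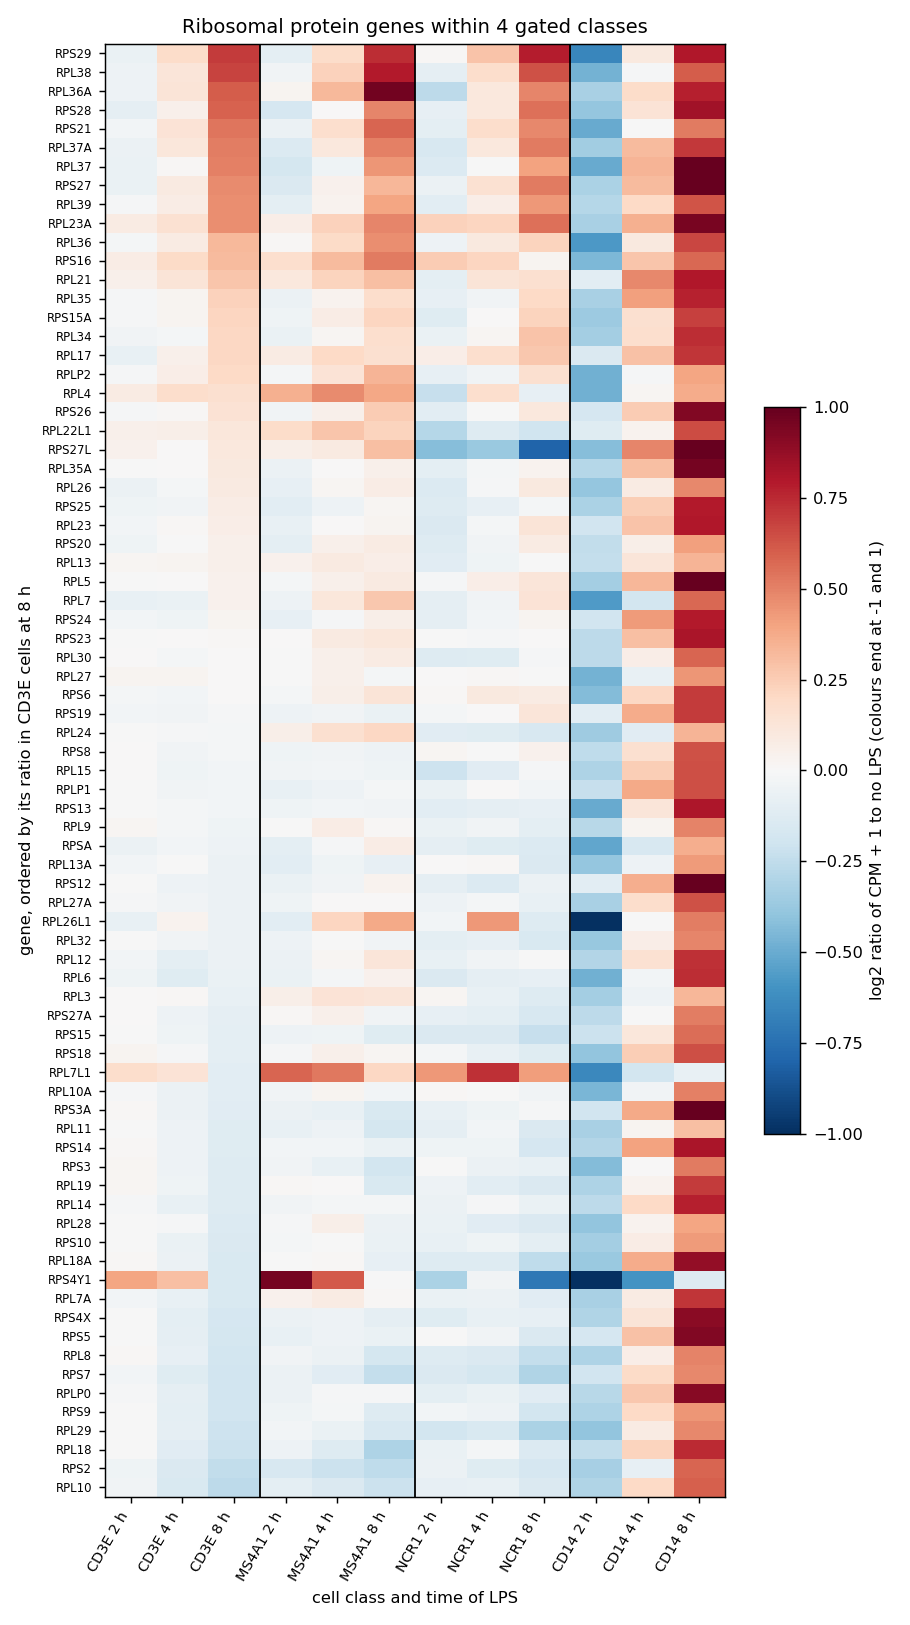
Log2 ratio of CPM + 1 to the library without LPS for 77 of the 79 measured ribosomal protein genes (1 line of cells each, ordered by the ratio in CD3E cells at 8 h) at 2, 4 and 8 h in each gated class (x axis), with red above and blue below 0 and colours that end at -1 and 1. By this order the upper genes are red at 8 h in the CD3E class, and most of them are also red at 8 h in the MS4A1 and NCR1 classes. The CD14 columns, for the gate of 1 CD14 UMI, are blue at 2 h and red at 8 h for nearly every gene.

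Compared with CD3E cells of the same library, all 79 genes were at least 1.2-fold lower in CD14 cells in 4 of 4 libraries, where 57.1% of all genes were, and none was higher, where 14.4% were. The lowest mean log2 ratios over the libraries, with the range of the 4, were those of RPL37, at -3.40 (range -3.94 to -2.96), RPS14 at -3.05 (range -3.63 to -2.39), RPS24, a small subunit protein needed for processing of the 18S rRNA precursor, at -3.04 (range -3.47 to -2.54), RPS25 at -3.01 (range -3.46 to -2.47) and RPL5, which with RPL11 and 5S rRNA can bind MDM2, at -3.00 (range -3.62 to -2.14). These 5 also had the largest range over the 4 classes. Among the least reduced were RPS4Y1 at -1.01 (range -1.89 to -0.40), RPL7L1 at -1.30 (range -1.85 to -0.99), RPS20 at -1.36 (range -1.62 to -1.06) and RPL26L1 at -1.43 (range -2.29 to -0.75), a group chosen after the values were seen.

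The composition of the ribosomal protein mRNA differed between CD14 and CD3E cells beyond its amount. Relative to the summed CPM of all 82 genes, RPL37 had a log2 ratio of -0.78 (range -0.89 to -0.62) and RPS20 of 1.25 (range 1.04 to 1.43), and neither range included 0. RPL37 was at 5533, 5277, 5572 and 7861 CPM in CD3E cells, against the levels in CD14 cells given above. RPS20 was at 2461, 2072, 2569 and 3261 CPM in CD14 cells and 6569, 6384, 6548 and 6801 CPM in CD3E cells.

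MS4A1 and CD3E cells were much closer. In MS4A1 cells 5 genes were at least 1.2-fold higher in 4 of 4 libraries, against 21.1% of all genes, among them RPS4Y1 at 1.34 (range 1.08 to 1.64), RPL22L1 at 0.95 (range 0.83 to 1.05), RPL4 at 0.66 (range 0.46 to 0.76) and RPS6, the small subunit protein phosphorylated by the S6 kinases, at 0.37 (range 0.32 to 0.45). Another 5 were lower, against 17.3%: RPL37 at -0.47 (range -0.52 to -0.41), RPLP1 at -0.37 (range -0.42 to -0.34), RPS25 at -0.31 (range -0.34 to -0.28), RPL13 at -0.31 (range -0.34 to -0.28) and RPL32 at -0.29 (range -0.34 to -0.26). In NCR1 cells RPL3, RPL10 and RPS6 were higher in 4 of 4, against 8.57%, and 3 genes, among them RPL22L1 and RPL7L1, were lower, against 16.6%. RPL7L1 in NCR1 cells was at -0.72 (range -1.06 to -0.47) and RPL10 at 0.36 (range 0.27 to 0.44). The 4 libraries had different treatments and are not replicates, so these counts describe how steady an order was.

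**Figure D4:**
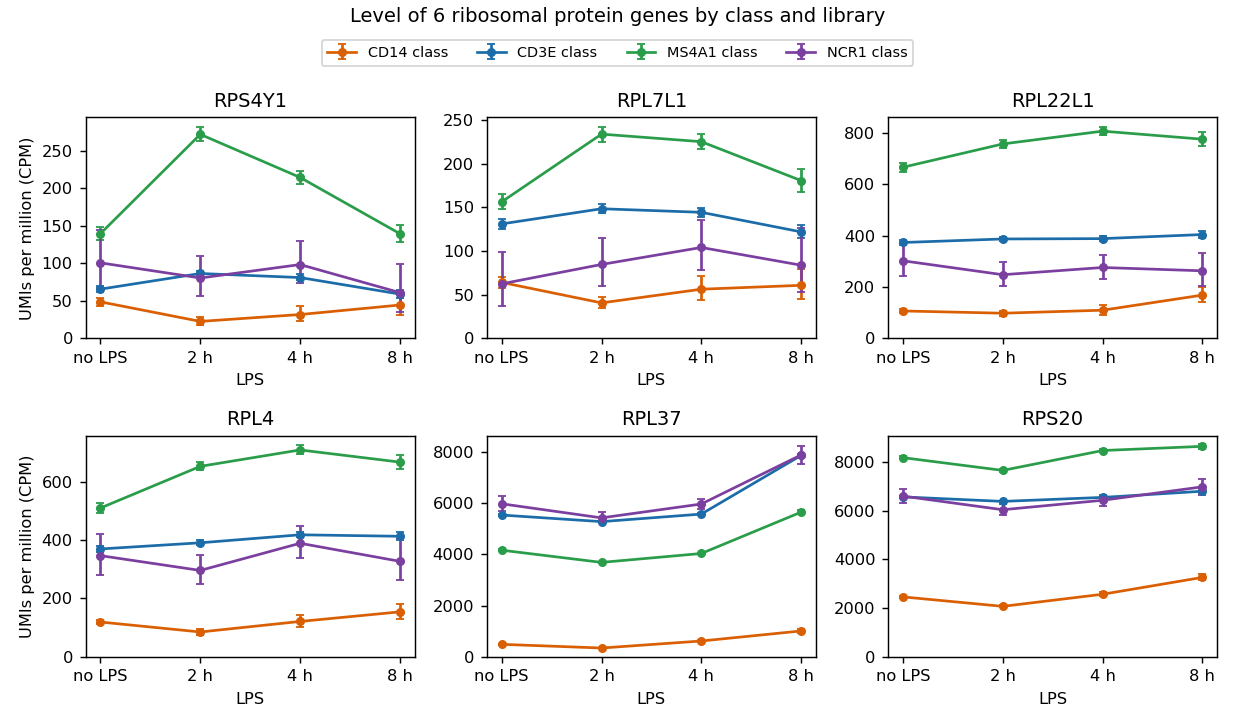
CPM (y axis, from 0) of RPS4Y1, RPL7L1, RPL22L1, RPL4, RPL37 and RPS20 in the CD14, CD3E, MS4A1 and NCR1 classes against LPS time (x axis), each panel with its own scale. Points are summed UMIs per 1000000 of 1 library and the bars are exact 95% counting intervals. RPS4Y1 in MS4A1 cells peaks at 2 h with 272 CPM, and RPL37 is lowest in CD14 cells in every library.

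Over all cells, RPS4Y1 had the highest ratio of the 79 genes at 2 and at 4 h. In human it is the Y-linked copy of RPS4X, but in the bovine RefSeq annotation (assembly ARS-UCD2.0) the gene of this name lies between SRSF3 and CDKN1A, and the cells came from females. It was at 82.2, 137, 125 and 85.5 CPM over all cells. In MS4A1 cells it was at 139.5, 272, 214 and 139 CPM, a log2 ratio of 0.96 (interval 0.86 to 1.06) at 2 h and -0.0006 (interval -0.15 to 0.15) at 8 h. It was thus higher at 2 and 4 h than without LPS in this class, and at 8 h the interval of the ratio included 0.

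In CD3E cells the RPS4Y1 level was lower than in MS4A1 cells, at 65.5, 86.4, 81.0 and 58.9 CPM, a log2 ratio of 0.39 (interval 0.29 to 0.51) at 2 h. In CD14 cells it was lower at 2 and 4 h than without LPS, at 48.6, 22.5, 31.7 and 44.4 CPM, a log2 ratio of -1.08 (interval -1.47 to -0.76) at 2 h. Of all genes, 67.3% were at least 1.2-fold lower in these cells at 2 h. The 8 h level of RPS4Y1 in CD14 cells was close to that without LPS and rested on 38 UMIs, against 337. In NCR1 cells RPS4Y1 was at 101, 80.4, 98.3 and 60.9 CPM. Of the UMIs of RPS4Y1 and RPS4X together, RPS4Y1 made up 2.12%, 3.16%, 2.85% and 2.07% over all cells and 2.91%, 5.73%, 4.56% and 3.096% in MS4A1 cells. RPS4X supplied the remainder, and counting may have divided or dropped reads of such similar genes.

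RPL7L1, a nucleolar relative of RPL7, followed a like course. It made up 3.96%, 4.94%, 4.59% and 3.60% of the UMIs of the pair over all cells and 3.82%, 5.79%, 5.03% and 3.67% in MS4A1 cells, where its level was 156, 234, 225 and 181 CPM. Its log2 ratio in MS4A1 cells was 0.58 (interval 0.48 to 0.68) at 2 h and 0.21 (interval 0.07 to 0.34) at 8 h. RPL22L1, the paralog of RPL22, was at 666, 757, 806 and 775 CPM in MS4A1 cells against 373, 387, 388 and 404 CPM in CD3E cells, with no overlap between these classes. No share is given for the pair of RPL22L1 and RPL22, since no gene named RPL22 was found.

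RPL36AL, a near copy of RPL36A outside the 82 genes, made up 55.5%, 54.7%, 52.3% and 43.5% of the UMIs of the 2 genes over all cells. It supplied 80.5%, 79.5%, 79.1% and 69.8% in CD14 cells, 53.2%, 53.9%, 52.6% and 45.6% in CD3E cells and 50%, 53.4%, 50.5% and 38.4% in MS4A1 cells. The copy was thus the larger part in CD14 cells throughout, and in all 3 classes its part was smallest at 8 h, the time at which RPL36A itself was highest.

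In the other pairs the paralog was a minor part. RPS27L, a p53 target in human cells, made up 2.57%, 2.83%, 2.52% and 2.24% of the UMIs of RPS27L and RPS27. RPL26L1 made up 2.31%, 2.13%, 2.32% and 2.31% of its pair with RPL26 over all cells and 5.05%, 3.15%, 4.76% and 5.19% in CD14 cells. RPL3L, a form found mainly in muscle, had 6, 7, 6 and 3 UMIs in the 4 libraries against 89572, 123840, 112438 and 43858 of RPL3. RPL10L, known from testis, had no UMI against 349802 of RPL10 without LPS, which, taking 3 UMIs as the most that a count of 0 allows, leaves a share of up to 0.000858% of the pair.

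**Figure D5:**
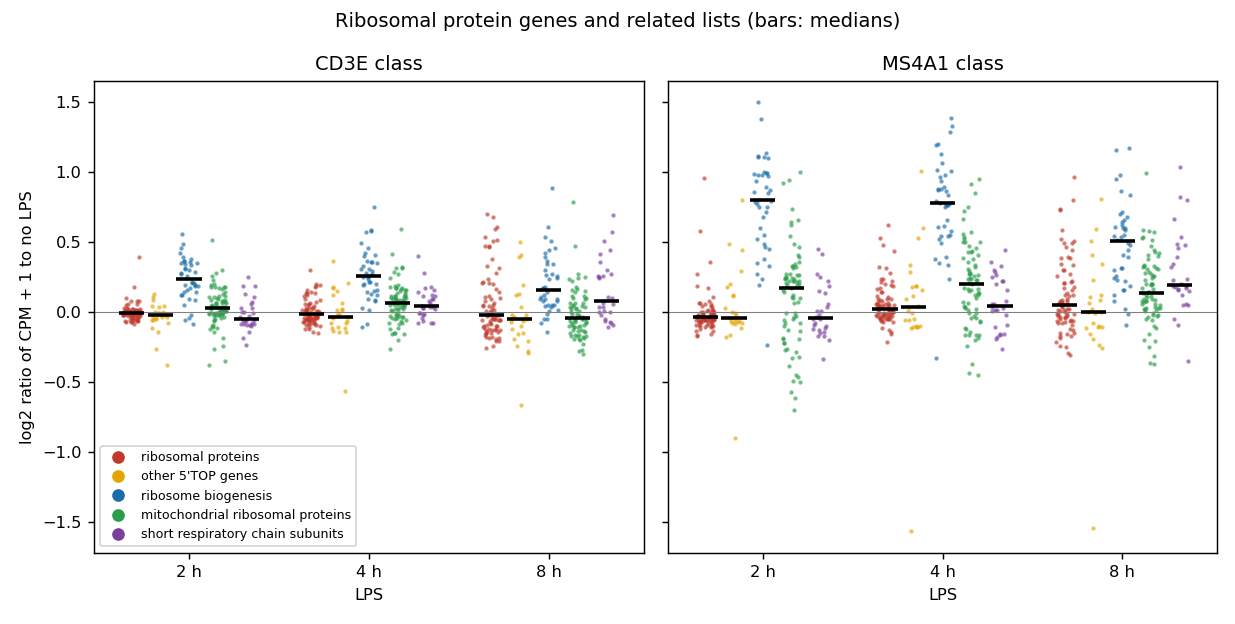
Log2 ratio of CPM + 1 to the library without LPS (y axis) at 2, 4 and 8 h (x axis) for the ribosomal protein genes and 4 lists of other genes, in the CD3E class on the left and the MS4A1 class on the right. Points are single genes and black bars are medians. The ribosome biogenesis medians in MS4A1 cells are 0.80, 0.78 and 0.50, against -0.04, 0.02 and 0.04 for the ribosomal protein genes.

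Other genes of the translation machinery were read for comparison. The 25 genes with a 5′TOP motif that are not ribosomal proteins by name, among them elongation factors, had median log2 ratios of 0.11, 0.18 and 0.13 at 2, 4 and 8 h over all cells, near those of the 79 genes. FAU, whose product is cut into ribosomal protein S30, was at 4156, 4451, 4604 and 4373 CPM. The elongation factor EEF1A1 was at 7711, 7847, 8467 and 8488 CPM. In both genes the highest and the lowest library differed by less than 1.2-fold. NPM1, a nucleolar chaperone, stood above its list at 0.52, 0.82 and 0.67, and VIM, the intermediate filament vimentin, far below it at -1.29, -1.76 and -1.60.

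Ribosome biogenesis genes, which act in ribosomal RNA synthesis, processing and subunit assembly, had larger ratios than the genes of the ribosome itself. Of 40 ribosome biogenesis genes, 35, 39 and 33 were at least 1.2-fold higher at 2, 4 and 8 h over all cells, with medians of 0.61, 0.68 and 0.48. In MS4A1 cells the counts were 37, 38 and 28 and the medians 0.80, 0.78 and 0.50, and in CD3E cells the counts were 19, 19 and 13 and the medians 0.23, 0.25 and 0.15. Of all genes, 12.8%, 20.0% and 27.9% were so in all cells, 18.2%, 20.3% and 23.5% in MS4A1 cells and 10.4%, 14.1% and 20.3% in CD3E cells.

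NOLC1, a chaperone of small nucleolar ribonucleoproteins, was at 59.4, 156, 156 and 116 CPM in MS4A1 cells and 44.7, 66.0, 67.5 and 53.6 CPM in CD3E cells. TSR1, a factor of late small subunit assembly, was at 34.9, 100.2, 86.4 and 53.7 CPM in MS4A1 cells, highest at 2 h. GNL3, nucleostemin, was at 46.0, 100.1, 117 and 104 CPM in MS4A1 cells and lowest without LPS. UBTF, the upstream binding factor of RNA polymerase I, was at 209.9, 178, 166 and 196 CPM in these cells and was highest without LPS. In the same MS4A1 cells 4, 7 and 19 of the 79 ribosomal protein genes were 1.2-fold higher, as given above.

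The 77 measured genes of the mitochondrial ribosome had median log2 ratios of 0.12, 0.24 and 0.17 over all cells, with 12, 33 and 26 at least 1.2-fold higher, where 12.8%, 20.0% and 27.9% of all genes were. The 14 regulators of translation had -0.01, 0.13 and 0.25. Among them EIF4G1, the scaffold of the cap-binding complex, had 0.47, 0.67 and 0.65, LARP1, which binds 5′TOP mRNAs, had 0.60 at 8 h, and EIF4EBP1, an inhibitor of cap-dependent translation, had -0.43 at 2 h.

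The scATAC-seq libraries give counts of accessible chromatin per gene in other nuclei of the same treatments. Of the 82 genes, 74, 74, 76 and 74 were listed without LPS and at 2, 4 and 8 h, among 11573 to 13821 genes. They took 0.648%, 0.672%, 0.666% and 0.726% of the counts, a small share beside that of the mRNA and against 0.635%, 0.535%, 0.573% and 0.639% of the listed genes. The median CPM of these genes was 83.6, 83.4, 83.5 and 86.6, and the median over all listed genes 67.7, 50.9, 54.1 and 64.6. The library without LPS held 975012 counts and the others 11957904 to 30250143, so its values are the least precise, and how counts were given to genes is not given in the sources used here. RPL13A was at 178, 182, 179 and 214 CPM and RPS12 at 206, 186, 186 and 213 CPM. The scATAC-seq share was highest at 8 h, in the library in which these genes were also the largest part of the genes listed.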

How the data were processed

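The authors prepared the scRNA-seq libraries with 10x 3′ v3 and the scATAC-seq libraries with v1.1 chemistry, and counted UMIs per gene and cell with Cell Ranger. The submitters' processing notes name the genome build ARS-UCD1.2 (bosTau9). The deposited scRNA-seq tables hold raw UMI counts per gene and barcode, and the deposited scATAC-seq tables hold whole-number counts per gene and barcode, whose rule for assigning fragments to genes is not given in the sources used here.

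Barcodes were kept when they showed between 200 and 3000 genes, no fewer than 200 UMIs and less than 20% UMIs from the 13 mitochondrial genes. These limits follow the methods of the study, except that its stated UMI limit, worded as an upper one, was read as a minimum, and that genes seen in few cells were not removed. This left 28484 of 30756 barcodes, more than the study gives after its own filters. UMIs were summed per library and class, since cells are not replicates, and expressed per 1000000 UMIs (CPM). Shares have exact binomial (Clopper-Pearson) intervals, ratios the exact conditional interval of 2 counts at 95%, for counting error only, and PCR or cell sampling error is not in them. Ratios are log2 values after adding 1 CPM, for genes with at least 20 UMIs over both libraries. A gene was counted as higher or lower past 1.2-fold, or 1.5-fold where given. With 1 library per treatment no model was fitted and no p-value computed. The percentages of all genes past the same fold are given beside the counts.

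Genes with values were named by these rules: the 5 highest and 5 lowest ratios per time over all cells with at least 200 UMIs, the 5 with the largest range over classes, the paralog pairs, the 5 with most UMIs, and the genes counted within classes. Some genes that these rules pick are not reported here. The genes, lists and classes were chosen with earlier results of these data known. The alternatives were TMM (edgeR 4.0.16) and DESeq2 1.42.0 size factors in R 4.3.3, CPM over genes other than the ribosomal ones, pseudocounts of 0.1 and 10 CPM, no minimum of UMIs, other limits on cells, a gate of 2 UMIs, cells thinned to 1000 UMIs, equal weight per cell, no paralogs, and classes at their mix without LPS. Thinning left out 508, 429, 284 and 377 shallower cells without LPS and at 2, 4 and 8 h. The classes were gated again on the thinned counts, so their cells are not the same as in the main classes. Work was done in Python 3.11.15 with numpy 2.4.6, scipy 1.17.1, pandas 2.3.3 and matplotlib 3.10.9, and the ratio code was tested on simulated counts. All 81 gene names were found among the RefSeq symbols of assembly ARS-UCD2.0, which was used for names and neighbours only, and no sequence is printed because no table of them was used here.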

Additional observations from a re-analysis of the deposited data

Results flagged for a closer look

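With 1 library per treatment and class, some genes were at least 1.2-fold higher in one class and at least 1.2-fold lower in another at the same LPS time. None of these differences was tested. The value given for each is the difference between the log2 ratios of both classes.

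At 2 h, RPS4Y1 in MS4A1 cells exceeded that in CD14 cells by 2.03 (0.96 against -1.08), and in CD3E cells it exceeded CD14 cells by 1.47 (0.39 against -1.08). At 4 h the same gene gave 1.22 for MS4A1 against CD14 cells (0.62 and -0.60) and 0.90 for CD3E against CD14 cells (0.30 and -0.60). RPL7L1 at 2 h gave 1.22 for MS4A1 against CD14 cells (0.58 and -0.65). RPL4 gave 0.84 (0.36 and -0.48) for the same classes and time. At 2 h, 61 of 79 ribosomal protein genes were 1.2-fold lower in CD14 cells, where 67.3% of all genes were.

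At 8 h, CD14 cells exceeded MS4A1 cells by 1.05 for RPL18 (0.74 and -0.31). RPS27L gave 1.80 for CD14 against NCR1 cells (1.00 and -0.80) and 1.1 for MS4A1 against NCR1 cells (0.30 and -0.80), and RPS7 gave 0.78 for CD14 against NCR1 cells (0.48 and -0.30). The 8 h NCR1 class held 38 cells, and the 8 h CD14 class 170 cells of which 61.8% had under 2000 UMIs and 66 had at least 2 CD14 UMIs. With these 66 cells alone, 11 of 79 genes were 1.2-fold higher at 8 h in place of 77.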

How the results depend on the processing

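The order of the CD14 class below the 3 lymphocyte classes held under every alternative run. The share in the libraries without LPS and at 2, 4 and 8 h was 27.5%, 31.5%, 33.5% and 31.7% with no upper limit on genes per cell, 31.2%, 34.1%, 36.4% and 36.6% at 10% mitochondrial UMIs, 31.5%, 34.6%, 36.7% and 37.4% from 2000 UMIs per cell, 31.1%, 34.0%, 36.2% and 36.4% without the paralogs, and 32.4%, 33.5%, 34.3% and 32.8% with every cell weighted equally. The class means of the CD14, CD3E, MS4A1 and NCR1 cells were 8.10%, 38.3%, 37.1% and 37.5% with no upper limit, 4.76%, 39.5%, 37.7% and 37.9% with a gate of 2 UMIs, 9.91%, 37.2%, 33.9% and 35.5% after thinning, and 9.25%, 37.8%, 34.8% and 37.0% with equal weights. From 2000 UMIs the first 3 were 6.12%, 39.7% and 37.7%.

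The median log2 ratio and the number of genes at least 1.2-fold higher at 2 h were 0.16 and 5 with TMM, 0.17 and 6 with DESeq2 size factors, 0.20 and 9 on the scale of CPM over other genes, and 0.21 and 7 with no upper limit. From 2000 UMIs the number was 5. With the classes at their mix without LPS the 2 h median reversed to -0.0175. At 4 h they were 0.21 and 19 with TMM, 0.21 and 19 with DESeq2, 0.35 and 74 on the other-gene scale, 0.30 and 59 with no upper limit, and 0.0243 and 4 at the class mix. At 8 h the median was 0.0835 with TMM, 0.0808 with DESeq2, 0.21 from 2000 UMIs, 0.31 with 53 genes on the other-gene scale, and 0.0379 with 16 genes at the class mix. The number above 0 at 8 h was 60 with TMM, 59 with DESeq2, 79 on the other-gene scale and 49 at the class mix. TMM moved the 8 h median of all genes by -0.10, DESeq2 by -0.11 and the other-gene scale by 0.11.

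In CD3E cells, by alternatives chosen after seeing the data, thinning gave 0 genes higher at 2 h and 3 at 4 h, none of them RPS4Y1, cells of 3000 to 6000 UMIs gave 0 at 4 h, and at 8 h these gave 2 and 5 genes 1.2-fold lower. In CD14 cells, likewise chosen after seeing the data, a gate of 2 UMIs gave 2 genes higher and 22 lower at 4 h and 11 higher and 17 lower at 8 h, in place of 22, 1, 77 and 0, and cells from 2000 UMIs gave 44 higher and 1 lower at 8 h. The scATAC-seq shares without the paralogs were 0.612%, 0.639%, 0.633% and 0.690%. Of the values of single named genes under an alternative, 129 moved past their counting interval and 141 did not. None of the genes past 1.2-fold changed sign, and a change of sign was not recorded for the others. Over all kept cells, all 79 ratios were above 0 at 2 and 8 h on the other-gene scale, also those given above as slightly below 0 over all cells. At the class mix 19 of 79 were above 0 at 2 h over all kept cells. RPS29, RPL38 and RPL36A in CD3E cells stayed below 0 at 2 h on the other-gene scale, at -0.08, -0.06 and -0.06. Of the shares of paralog pairs, read per library with no upper limit on genes as the only alternative, 18 moved and 2 did not. The causes were not tested.

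No paired analysis was possible because each treatment has 1 library from 1 pool, so that no pair of treatments has a repeat. Classes were compared within each library, and libraries of different treatments were not taken as replicates of a class. No replicate could be left out for the same reason. Depth limits the NCR1 class at 38 to 97 cells and the 8 h CD14 class at 170 cells, in which low genes such as RPS4Y1 and RPL7L1 have few UMIs. UMIs lost to multimapping reads, and RNA free in the droplets, were not measured here.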
